A study of Mus musculus with 12 samples.

Results

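Transcripts of the BCL2 family, the proteins that decide whether the mitochondrial route to cell death is opened, were followed in mouse CD4 T cells with and without the glucose transporter GLUT3. The 10 members were the rows whose symbol in both deposited tables was Bcl2, Bcl2l1, Mcl1, Bcl2a1b, Bcl2a1d, Bax, Bak1, Bcl2l11, Bbc3 or Pmaip1, and all 10 were found among 45703 genes. That rule used the symbols alone, but the 10 symbols were chosen with earlier results of these data known. Total RNA was sequenced in 12 libraries of naive T cells stimulated through CD3 and CD28 and polarized for 3 days in culture, on a C57BL/6 background. The 4 groups of 3 libraries were Th17 cells of genotype Slc2a3-fl/fl Cd4-cre (Th17 KO), Th17 cells labelled wild type (Th17 WT), Th1 cells of genotype Slc2a3-fl/fl Cd4-cre (Th1 KO) and Th1 cells labelled wild type (Th1 WT). Th17 cells are the helper cells that make interleukin 17 and Th1 cells those that make interferon gamma. In this model Slc2a3, which encodes GLUT3, is deleted by a recombinase driven from the Cd4 promoter, which is active from the thymus on and also in the precursors of CD8 T cells. The labels do not say whether the wild-type cells carried the recombinase or the floxed alleles, nor whether replicates came from separate mice or cultures, so a p-value here speaks of the spread between libraries, part of which may be technical.

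BCL2 proteins act through each other. The survival proteins BCL2, BCL-XL (from Bcl2l1), MCL1 and A1 (from the Bcl2a1 genes) hold the pore-forming effectors BAX and BAK in check, and the BH3-only proteins BIM (from Bcl2l11), PUMA (from Bbc3) and NOXA (from Pmaip1) bind the survival proteins and release that check. In activated T cells BIM is best known for the death of cells at the end of a response, A1 as a survival gene induced by antigen receptor and NF-kappaB signals, and NOXA as a partner chiefly of MCL1 and A1.

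The sequences that bear most on reading these values are those of the A1 genes, since mice carry near-identical copies on chromosome 9 and a short read can match more than 1. The coding sequences of Bcl2a1d and Bcl2a1b, each 519 bases long in the GENCODE M21 annotation, differ at 6 positions, and those of Bcl2a1d and Bcl2a1a at 7. The first 75 bases from the start codon, 75 being the read length, are shown with the bases that differ between any of the 3 copies in capitals.
Bcl2a1d: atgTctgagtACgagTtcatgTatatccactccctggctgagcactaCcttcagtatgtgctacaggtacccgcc
Bcl2a1b: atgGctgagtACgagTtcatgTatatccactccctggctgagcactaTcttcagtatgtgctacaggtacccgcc
Bcl2a1a: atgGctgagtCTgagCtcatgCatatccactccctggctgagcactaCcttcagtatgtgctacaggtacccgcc
Further along, the stretch from position 95 to 169 is letter for letter the same in these copies, 1 of 151 such windows, and a read from it cannot be given to a single gene.
Bcl2a1a, Bcl2a1b and Bcl2a1d: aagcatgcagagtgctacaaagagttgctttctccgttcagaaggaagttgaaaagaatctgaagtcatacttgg
Of all 75-base windows of the annotated transcript, 67.6% of those of Bcl2a1d, 43.5% of those of Bcl2a1b and 55.2% of those of Bcl2a1a occur in another copy, against 3.8% for Bcl2a1c. How the authors' counting treated such reads is not given in the sources used here, so the split among copies is uncertain and their sum is given beside them. If such reads were left out of the counts, the sum would be too low as well. The ranks of the A1 genes and their share of survival transcripts would then also be too low.

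Levels are in TPM, reads per kilobase of exon scaled by the authors to the same total in every library, so genes can be ranked by it, the A1 genes only within the limit above. Bax stood highest of the 10 members in all 4 groups by mean TPM, and Bak1 or Bbc3 lowest. Mcl1 came next in Th17 KO and Th17 WT cells, and Bcl2a1b in Th1 KO and Th1 WT cells. Some neighbours in this order had overlapping libraries: Bcl2a1d with Bcl2, Bcl2 with Bcl2l1, Bcl2l1 with Bcl2l11, Bcl2l11 with Pmaip1 and Bbc3 with Bak1 in Th17 KO cells; Bcl2a1b with Bcl2, Bcl2 with Bcl2a1d and Pmaip1 with Bcl2l11 in Th17 WT cells. In Th1 KO cells these were Pmaip1 with Bcl2 and Bak1 with Bbc3, and in Th1 WT cells Bcl2a1b with Mcl1, Bcl2a1d with Bcl2 and Pmaip1 with Bcl2l11.

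**Figure D1:**
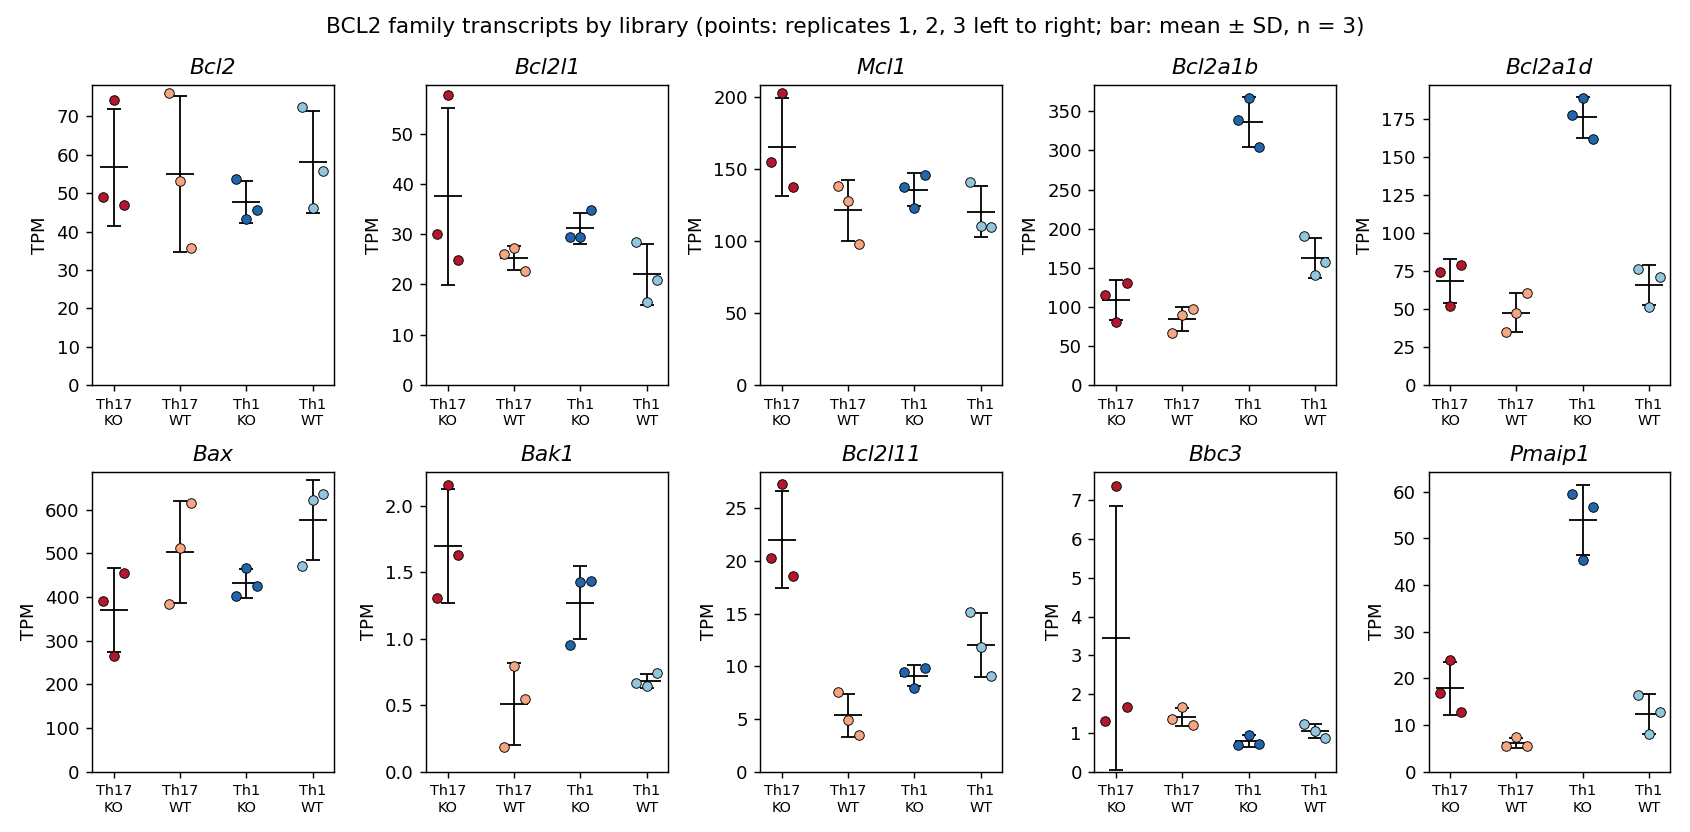
TPM (linear axis from 0) of each member in each library, with Th17 KO, Th17 WT, Th1 KO and Th1 WT from left to right in every panel, points for replicates 1, 2 and 3, and a bar for the mean ± SD (n = 3). Bcl2l11 is highest in the 3 Th17 KO libraries (18.6 to 27.3 TPM), and Bcl2a1b, Bcl2a1d and Pmaip1 in the 3 Th1 KO libraries.

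The libraries held 16596283 to 28496606 reads, recovered from TPM and exon length. Slc2a3 was listed at 3.30 to 18.7 TPM in Th17 KO and 44.6 to 379.3 TPM in Th17 WT libraries, and at 4.49 to 7.97 TPM in Th1 KO and 64.7 to 397.7 TPM in Th1 WT libraries, so the KO and wild-type ranges did not meet in either lineage, in the direction the labels give. Th17 KO replicate 2 stood apart, with a median absolute log2 difference of 0.63 from the other libraries of its group against 0.17 to 0.43 for the other 11 libraries. It held the highest value of its group for 7 members and the lowest for the other 3. The 7 have 2023 to 11212 exon bases, and the 3, Bax, Bcl2a1b and Bcl2a1d, have 764 to 923. Whether transcript length had a part in the values of this library was not tested. Th17 markers (Il17a, Il17f and 4 others) summed to 477 to 660 TPM in Th17 KO and 667 to 1191 TPM in Th17 WT cells, against 11.1 to 29.1 TPM in Th1 KO and 22.5 to 25.0 TPM in Th1 WT cells. Th1 markers (Tbx21, Ifng and 3 others) summed to 103 to 386 TPM in Th17 KO, 45.2 to 72.1 TPM in Th17 WT, 7243 to 9153 TPM in Th1 KO and 793 to 1364 TPM in Th1 WT cells. Within a lineage, 0 of 6 Th17 markers passed in Th17 KO against WT by limma (3 at an unadjusted p under 0.05, and 1, Il17a, passed by voom), and 3 were higher and 2 lower in Th1 KO cells. A gene was tested if it reached 1 TPM in at least 3 libraries of the fit. Il17a and Il17f, counted as higher in Th1 KO cells, were under 1 TPM in all 3 Th1 WT libraries. They entered that fit only through the KO libraries. Of 5 Th1 markers, 2 rose in Th17 KO cells, and 4 rose and 1 fell in Th1 KO cells. All 8 CD4 T cell markers, Cd3e and Cd4 among them, were detected in every group, and 1 rose in Th17 KO and 5 in Th1 KO cells. Beside these counts and those of the markers below, 4.6% of all genes tested rose and 2.7% fell in Th17 KO cells. In Th1 KO cells 17.6% rose and 13.7% fell.

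Markers of other cells moved with the genotype. The 4 gamma delta T cell markers summed to 165 to 255 TPM in Th17 KO against 17.3 to 20.1 TPM in Th17 WT libraries, and to 171 to 268 TPM in Th1 KO against 13.7 to 33.3 TPM in Th1 WT libraries, and all 4 rose in both lineages. The 8 myeloid markers summed to 44.2 to 64.9 TPM in Th17 KO against 12.4 to 14.6 TPM in Th17 WT, and to 25.2 to 46.1 TPM in Th1 KO against 10.9 to 14.0 TPM in Th1 WT libraries. Of them, 3 of 5 tested rose in Th17 and 2 of 3 tested in Th1 cells, while Adgre1 was at 0 in all 3 Th17 WT libraries, and Csf1r and Adgre1 in all 3 Th1 WT libraries. Tyrobp, among those that rose, stood at 0.684 to 1.14 TPM in Th17 WT libraries and entered the Th17 fit only through the KO libraries. The 7 CD8 and NK cell markers summed to 88.2 to 99.9 TPM in Th17 KO against 48.9 to 64.1 TPM in Th17 WT, and to 191 to 281 TPM in Th1 KO against 61.8 to 78.0 TPM in Th1 WT libraries, with 2 of 5 tested higher in Th17, and 3 higher and 2 lower (Cd8a and Cd8b1) of 5 in Th1 cells. The 8 red cell and platelet markers, of which Pf4 and Ppbp rose in both lineages, summed to 45.8 to 114 TPM in Th17 KO against 9.23 to 17.6 TPM in Th17 WT, and to 59.1 to 197 TPM in Th1 KO against 11.7 to 25.2 TPM in Th1 WT libraries. Ppbp, at 0.412 to 1.02 TPM in Th17 WT libraries, likewise entered the Th17 fit only through the KO libraries. The 14 immediate early genes, which respond to handling as well as to stimulation, summed to 2832 to 3340 TPM in Th17 KO against 1462 to 1668 TPM in Th17 WT, and to 3134 to 3760 TPM in Th1 KO against 1072 to 1400.5 TPM in Th1 WT libraries, with 6 of 12 and 11 of 13 tested higher. The sums of the 7 B cell markers overlapped between genotypes in both lineages. They were 132 to 198 TPM in Th17 KO against 114 to 153 TPM in Th17 WT libraries. In Th1 cells they were 68.35 to 475 TPM in Th1 KO against 88.1 to 112 TPM in Th1 WT libraries. Of 5 tested, 1 (Igkc) was higher in Th17 KO cells. In Th1 cells 0 of 5 passed by limma, 2 were higher at an unadjusted p under 0.05 and 0 passed by voom. Igkc stood at 228, 328 and 29.1 TPM in Th1 KO against 26.0, 42.3 and 33.8 TPM in Th1 WT libraries. The part of these cells in the values below was not tested, and in bulk RNA fewer cells of a type and less RNA per cell cannot be told apart.

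In Th17 cells the loss of GLUT3 went with more transcript of the BH3-only genes Bcl2l11 and Pmaip1 and with no member past the threshold in the other direction. Of the 10 members, all tested, 2 rose and 0 fell by limma. At an unadjusted p under 0.05, 3 were higher and 0 lower, and voom on the recovered reads also called 0 lower. Over all 13823 genes tested, 4.6% rose and 2.7% fell at the same threshold, an adjusted p under 0.05 by limma with Benjamini-Hochberg adjustment on log2(TPM + 1). The median log2 fold change was 0.50 over the members and 0.04 over all genes. Fold changes on this scale understate the change of genes with low values.

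Bcl2l11 (chr2:128126038-128162547, plus strand, GRCm38.p6) stood at 20.3, 27.3 and 18.6 TPM in Th17 KO replicates 1, 2 and 3, against 7.54, 4.95 and 3.52 TPM in Th17 WT replicates 1, 2 and 3. Every KO library lay above every wild-type library, and the ratio of the means was 4.13. The log2 fold change was 1.89 ± 0.32 (SE), with an adjusted p of 0.0185. Without the library that stood apart, Th17 KO replicate 2, it was 1.73 with an adjusted p of 0.00796. The call was lost without Th17 WT replicate 2 or 3 or Th17 KO replicate 1 or 3, with adjusted p-values of 0.104, 0.0969, 0.0963 and 0.0558 and log2 fold changes of 1.67 to 2.00.

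Pmaip1 (chr18:66458604-66465558, plus strand) stood at 16.9, 23.9 and 12.7 TPM in Th17 KO libraries, against 5.53, 7.37 and 5.57 TPM in Th17 WT libraries. The groups did not overlap, and the log2 fold change was 1.36 ± 0.30 with an adjusted p of 0.0417. This call was the less firm of the pair: it was lost without any 1 of the 6 libraries except Th17 KO replicate 2 (adjusted p 0.0649 to 0.181), with a pseudocount of 5 (0.0578) and with no filter on low values (0.0697). Without Th17 KO replicate 2 the adjusted p was 0.0161 and the log2 fold change 1.14.

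Bbc3 (chr7:16308398-16318334, plus strand), the third BH3-only gene, was low, with 1.30, 7.37 and 1.68 TPM in Th17 KO against 1.37, 1.67 and 1.20 TPM in Th17 WT libraries. The groups overlapped, and the 7.37 TPM of Th17 KO replicate 2 set the KO mean apart. Its log2 fold change was 0.63 ± 0.48 (adjusted p 0.453), and 0.05 without that library.

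Of the effectors, Bak1 (chr17:27019812-27028627, minus strand) was measured on few reads, 34, 30 and 52 in Th17 KO against 4, 18 and 14 in Th17 WT libraries. These gave 1.30, 2.16 and 1.63 TPM in Th17 KO against 0.18, 0.80 and 0.54 TPM in Th17 WT libraries. The groups did not overlap, but Bak1 entered the test only through the KO libraries and its adjusted p was 0.0754 (log2 fold change 0.85 ± 0.23). In the fit over all 12 libraries the adjusted p was 0.0133, and by voom the log2 fold change was 1.81 with an adjusted p of 0.0549.

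Bax (chr7:45461695-45466903, minus strand) stood at 390.0, 266 and 455 TPM in Th17 KO against 383, 511 and 614 TPM in Th17 WT libraries. The groups overlapped, and the log2 fold change of -0.45 ± 0.27 did not pass (adjusted p 0.348).

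The survival genes overlapped between genotypes in Th17 cells, and 0 of 5 passed by limma, 0 by voom, and 0 had an unadjusted p under 0.05. Bcl2 (chr1:106538176-106714290, minus strand) stood at 48.9, 74.3 and 46.9 TPM in Th17 KO against 76.2, 53.2 and 35.6 TPM in Th17 WT libraries, a log2 fold change of 0.08 ± 0.33. Mcl1 (chr3:95656944-95663179, plus strand) stood at 154, 203 and 137 TPM in Th17 KO against 138, 128 and 97.5 TPM in Th17 WT libraries, a log2 fold change of 0.44 ± 0.23. Bcl2l1 (chr2:152758732-152833803, minus strand) stood at 30.0, 57.6 and 24.9 TPM in Th17 KO against 26.0, 27.3 and 22.7 TPM in Th17 WT libraries. Its log2 fold change of 0.46 ± 0.33 became 0.11 without Th17 KO replicate 2, the library with 57.6 TPM.

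Bcl2a1b (chr9:89199273-89207838, plus strand) stood at 115, 80.8 and 130.2 TPM in Th17 KO against 67.1, 89.0 and 97.3 TPM in Th17 WT libraries. Bcl2a1d (chr9:88723288-88731850, minus strand) stood at 74.8, 51.9 and 79.3 TPM in Th17 KO against 34.8, 47.4 and 60.7 TPM in Th17 WT libraries. For both genes Th17 KO replicate 2 was the low library of its group and lay inside the wild-type range. The log2 fold changes were 0.35 ± 0.25 and 0.53 ± 0.28, and 0.44 ± 0.26 (adjusted p 0.322) for the summed A1 copies. Without that library they were 0.54 for Bcl2a1b and 0.72 for Bcl2a1d, with adjusted p-values of 0.118 and 0.0876.

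In Th1 cells the members that rose with the loss of GLUT3 were the A1 copies Bcl2a1b and Bcl2a1d, which are survival genes, and the BH3-only gene Pmaip1, which rose in Th17 cells too. Of 8 members tested, 3 rose and 0 fell by limma. At an unadjusted p under 0.05, 4 were higher and 1 lower, and voom called 0 lower, while Bak1 and Bbc3 stayed under the filter of 1 TPM in 3 libraries. Over all 13487 genes tested in Th1 cells, 17.6% rose and 13.7% fell. The median log2 fold change was 0.35 over the members tested and 0.03 over all genes. All 3 calls held under every alternative run and without any 1 library. Because Bcl2a1b and Bcl2a1d have shared sequence, their calls may not be separate results.

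Bcl2a1b stood at 339, 368 and 304 TPM in Th1 KO against 190.5, 140.5 and 157 TPM in Th1 WT libraries, without overlap. Its log2 fold change was 1.05 ± 0.16 (adjusted p 0.00143). Bcl2a1d stood at 178, 189 and 162 TPM in Th1 KO against 76.2, 51.1 and 70.9 TPM in Th1 WT libraries, also without overlap, with a log2 fold change of 1.42 ± 0.18 (adjusted p 0.000646).

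The 4 A1 copies summed to 608, 660 and 551 TPM in Th1 KO against 308, 222 and 267 TPM in Th1 WT libraries, and tested as 1 row they rose by a log2 fold change of 1.20 ± 0.16 (adjusted p 0.000808). Bcl2a1a and Bcl2a1c also passed in Th1 cells, at log2 fold changes of 1.31 and 1.15. Bcl2a1d made up 0.53, 0.51 and 0.53 of the Bcl2a1b level in Th1 KO against 0.40, 0.36 and 0.45 in Th1 WT libraries, a ratio chosen after its values were seen and subject to the shared reads shown above.

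Pmaip1 stood at 59.6, 45.4 and 56.8 TPM in Th1 KO against 16.5, 8.04 and 12.7 TPM in Th1 WT libraries. The lowest KO library lay well above the highest wild-type library, and the log2 fold change of 2.08 ± 0.24 (adjusted p 0.000517) was the largest among the members in Th1 cells. Bcl2l11 stood at 9.51, 7.99 and 9.83 TPM in Th1 KO against 15.1, 11.9 and 9.10 TPM in Th1 WT libraries. Here the groups overlapped, the sign of the log2 fold change was negative (-0.35 ± 0.20) and the adjusted p was 0.226.

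Bax stood at 401, 466 and 425 TPM in Th1 KO against 471, 621 and 635 TPM in Th1 WT libraries, each KO value under each wild-type value. Its log2 fold change was -0.41 ± 0.15 with an adjusted p of 0.0750, and 0.00845 without Th1 WT replicate 1. Bcl2l1 stood at 29.3, 29.5 and 34.8 TPM in Th1 KO against 28.5, 16.5 and 20.9 TPM in Th1 WT libraries, without overlap, at 0.52 ± 0.21 with an adjusted p of 0.0883, and 0.0112 without the same library. Th1 WT replicate 1 held the highest value of its group for 8 of the 10 members.

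Mcl1 stood at 138, 123 and 146 TPM in Th1 KO against 141, 110.0 and 110.0 TPM in Th1 WT libraries, and Bcl2 at 53.8, 43.3 and 45.7 TPM in Th1 KO against 72.5, 46.0 and 55.8 TPM in Th1 WT libraries. Both overlapped, with log2 fold changes of 0.18 ± 0.15 for Mcl1 and -0.26 ± 0.19 for Bcl2. The members under the filter stood at 0.95 to 1.44 TPM in Th1 KO against 0.64 to 0.74 TPM in Th1 WT libraries for Bak1, and at 0.70 to 0.96 TPM in Th1 KO against 0.87 to 1.23 TPM in Th1 WT libraries for Bbc3. Bak1 was on 25 to 30 reads in Th1 KO against 13 to 15 in Th1 WT libraries.

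**Figure D2:**
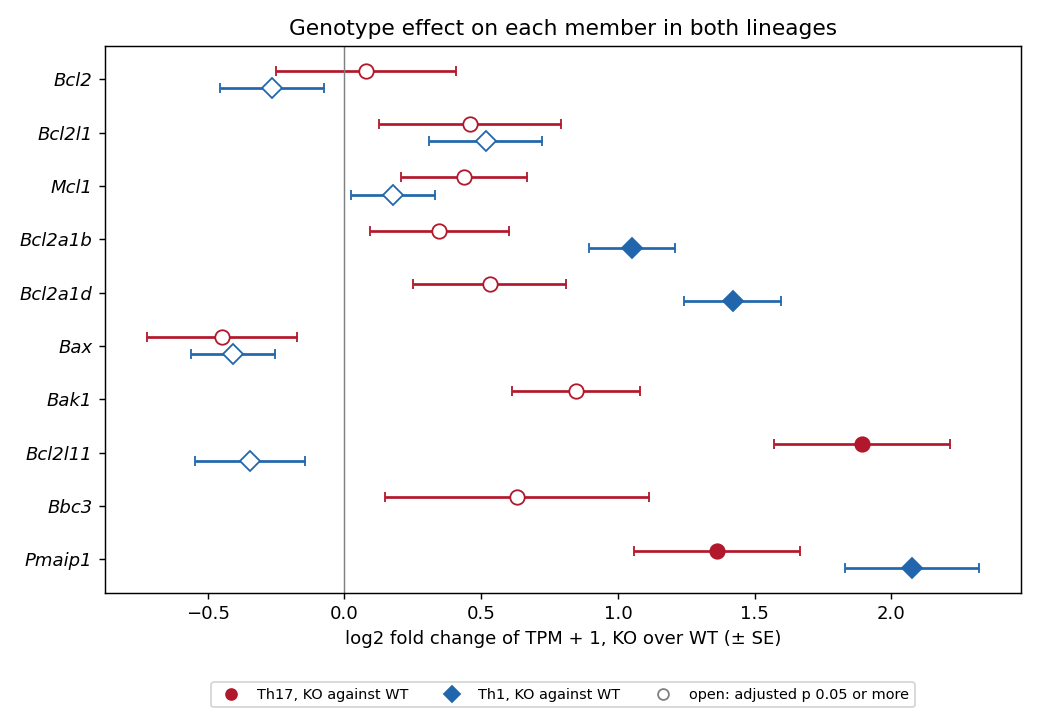
Log2 fold change of TPM + 1, KO over WT, with its SE for each member in Th17 (circles) and Th1 cells (diamonds); filled symbols have an adjusted p under 0.05, and Bak1 and Bbc3 were not tested in Th1 cells. Bcl2l11 lies at 1.89 in Th17 and at -0.35 in Th1 cells, and Pmaip1 lies above 1 in both.

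Whether the genotype acted on a member differently in the lineages was tested as the KO effect in Th17 cells minus that in Th1 cells, over all 12 libraries. Of 10 members, 1 had a larger and 0 a smaller effect in Th17 cells by limma, against 1 and 2 at an unadjusted p under 0.05 and 0 smaller by voom. Of all 14579 genes, 0.35% had a larger and 0.288% a smaller effect (51 and 42 genes, against 47 and 18 by voom on the recovered reads). The member was Bcl2l11, with a difference of 2.24 ± 0.38 on the log2 scale and an adjusted p of 0.0217. The value was 2.08 without Th17 KO replicate 2 (adjusted p 0.0188). Leaving out any 1 of 8 libraries lost the call: the 3 Th1 KO libraries, Th1 WT replicates 1 and 2, Th17 WT replicates 2 and 3, and Th17 KO replicate 1. The adjusted p was then 0.0582 to 0.0887 and the difference 2.02 to 2.29.

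The A1 genes passed in Th1 cells and not in Th17 cells, but the difference of their effects did not pass: -0.70 ± 0.30 for Bcl2a1b (adjusted p 0.682) and -0.89 ± 0.33 for Bcl2a1d (adjusted p 0.554). For Pmaip1 the difference was -0.71 ± 0.40 (adjusted p 0.960). These values do not show that the effects were alike.

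Seen against Bcl2, a survival protein that BIM binds, the level of Bcl2l11 varied little within each Th17 group. Per 100 TPM of Bcl2 there were 41.4, 36.7 and 39.6 TPM of Bcl2l11 in Th17 KO against 9.90, 9.30 and 9.89 TPM in Th17 WT libraries. In Th1 cells there were 17.7, 18.4 and 21.5 TPM in Th1 KO against 20.9, 25.8 and 16.3 TPM in Th1 WT libraries. The Th17 groups lay on either side of both Th1 groups, and within Th1 cells the genotypes overlapped. This ratio was chosen after its values were seen and is a description. Bcl2l11 and Bcl2 are both long, at 11212 and 7349 exon bases, and any part of transcript length in the ratio was not tested.

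**Figure D3:**
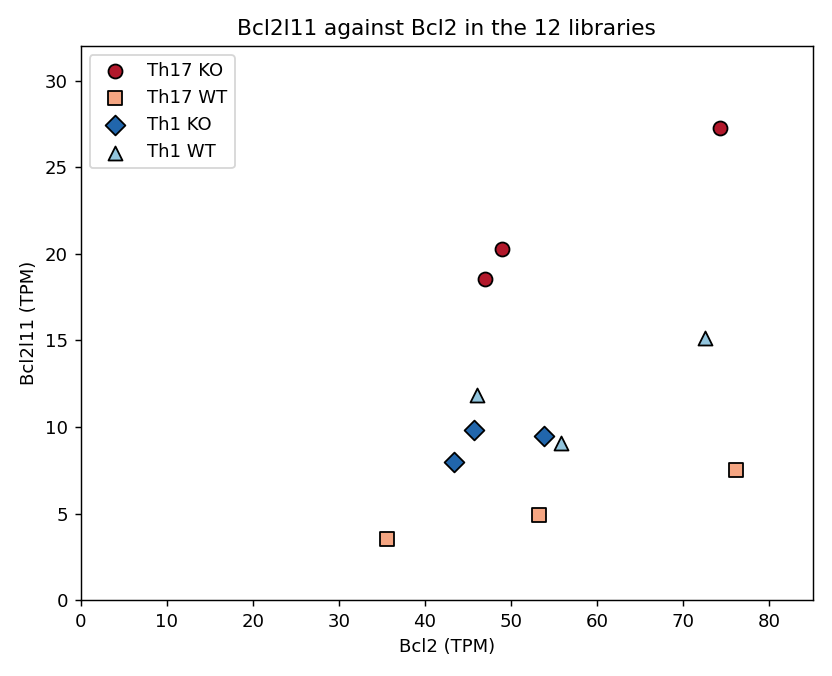
Bcl2l11 against Bcl2, both in TPM on linear axes, 1 point per library and 1 symbol per group. The Th17 KO points (36.7 to 41.4 TPM of Bcl2l11 per 100 TPM of Bcl2) lie above those of both Th1 groups and the Th17 WT points (9.30 to 9.90) below them.

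The makeup of the survival transcripts, the summed TPM of Bcl2, Bcl2l1, Mcl1 and the 4 A1 copies, moved with the genotype in Th1 cells. The A1 copies made up 73.4%, 77.1% and 70.9% of that sum in Th1 KO against 56.0%, 56.2% and 58.9% in Th1 WT libraries. In Th17 cells they made up 49.4%, 32.5% and 54.6% in Th17 KO against 33.4%, 43.4% and 54.9% in Th17 WT libraries, with overlap. The sum itself was 829, 856 and 777 TPM in Th1 KO against 550.3, 394 and 454 TPM in Th1 WT libraries. In Th17 cells it was 461, 496 and 460.0 TPM in Th17 KO against 360.4, 369 and 345 TPM in Th17 WT libraries, without overlap, although no single survival gene passed the test there. The sum and the shares were not tested and are a description. Th17 KO replicate 2, with the highest sum of its group, had the lowest A1 share of that group.

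**Figure D4:**
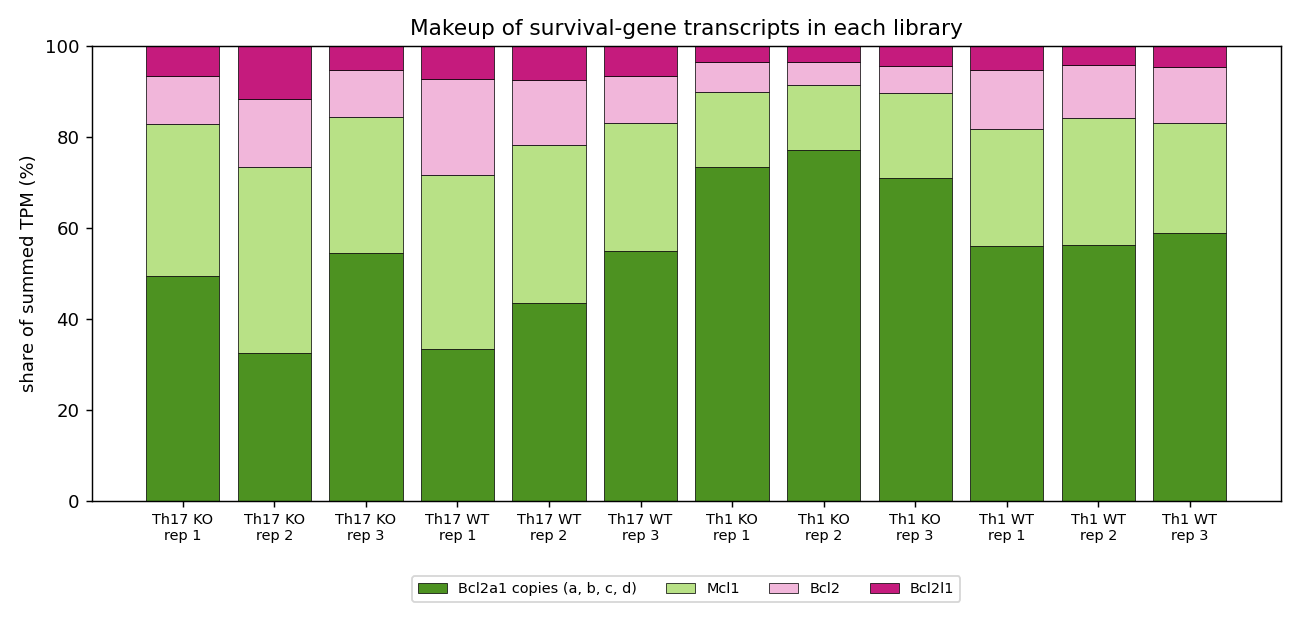
Share of the summed TPM of the survival genes held by the A1 copies, Mcl1, Bcl2 and Bcl2l1, stacked to 100% for each of the 12 libraries. The A1 part is 70.9% to 77.1% in Th1 KO libraries, above the 56.0% to 58.9% of Th1 WT libraries, and ranges from 32.5% to 54.6% in Th17 KO and from 33.4% to 54.9% in Th17 WT libraries.

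The lineages were also compared within each genotype, Th17 over Th1. Under TPM the median of all 14579 genes was 0.14 higher in Th17 WT and 0.13 higher in Th17 KO cells on the log2 scale, and after rescaling by median-of-ratios factors it was -0.00 and -0.04, so member values shift by about that much between the scales. In GLUT3-deficient cells 1 member was higher in Th17 cells (Bcl2l11) and 3 were lower (Bcl2a1b, Bcl2a1d and Pmaip1), against 3.35% higher and 2.56% lower over all genes, or 488 and 373 genes, and 470 and 564 genes after rescaling. Bcl2l11 differed by 1.17 ± 0.27 (adjusted p 0.0226), and by 0.99 after rescaling. Its call was lost without any 1 Th1 KO library or without Th17 KO replicate 1 (adjusted p 0.0514 to 0.109). Bcl2a1b differed by -1.65 ± 0.21 (adjusted p 0.000433), Bcl2a1d by -1.37 ± 0.24 (0.00394) and Pmaip1 by -1.58 ± 0.28 (0.00464), and these 3 calls held without any 1 library and under every alternative. Here too the calls of Bcl2a1b and Bcl2a1d may not be separate results.

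In wild-type cells 1 member passed, Bcl2a1b, which was lower in Th17 cells, with 0 members higher by limma, by voom or at an unadjusted p under 0.05. Over all genes 1.85% were higher and 1.78% lower, or 270 and 259 genes, and 217 and 366 genes after rescaling. Bcl2a1b differed by -0.94 ± 0.21 (adjusted p 0.0266), and by -1.12 after rescaling. Its call was lost without Th17 WT replicate 1 or 2 or Th1 WT replicate 1 or 3 (adjusted p 0.0757 to 0.109) and for the summed A1 copies (-0.77, adjusted p 0.0817).

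Bcl2l11 was also lower in every Th17 WT than in every Th1 WT library, at -1.06 ± 0.27, just short of the threshold (adjusted p 0.0529). It passed under 7 of 21 alternatives, whose adjusted p ran between 0.0115 and 0.199, among them 2 of the 12 fits that left out 1 library. Blocking on the replicate number gave an adjusted p of 0.0418. That fit held all 12 libraries, and between the GLUT3-deficient lineages the numbers were not taken to pair. After rescaling the adjusted p was 0.0175 (-1.22), and in the 6 wild-type libraries alone, without a block, 0.0759. A fit of those 6 libraries with the replicate number as a block was not run, although their numbers were taken to pair. Pmaip1 was at -0.86 ± 0.28 (adjusted p 0.142) between the wild-type lineages, without overlap, and passed after rescaling (0.0280).

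The wider pathway was read from 7 gene lists, as counts in each direction beside the background given above. The p53 list holds the members Bax, Bbc3 and Pmaip1, so its counts and medians are not separate from theirs. Trp53 is in that list and in the list of transcription factors. In the interaction 0 of 95 tested entries passed by limma, 11 had an unadjusted p under 0.05, and 1, Sesn1, passed by voom. Among 11 tested other BCL2 family genes, with a median log2 fold change of -0.19, 0 rose by limma, by voom or at an unadjusted p under 0.05, and 1 fell in Th17 KO cells: Bok, an effector related to BAX, with 0.815 ± 0.256 TPM in Th17 KO and 3.03 ± 0.64 TPM in Th17 WT cells (mean ± SD, n = 3 each), which is -1.15 on the log2 scale (adjusted p 0.0310, and 0.0746 with no filter). In Th1 KO cells 2 of 11 rose (the A1 copies named above) and 0 fell by limma, with a median of -0.23. At an unadjusted p under 0.05, 2 were lower, and voom called 2 lower, Bid and Bnip3l.

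Of 14 apoptosome and caspase genes tested in Th1 cells, 4 rose and 1 fell in Th1 KO cells (median 0.14). Casp6, an executioner caspase, averaged 601 ± 37 TPM in Th1 KO and 326 ± 67 TPM in Th1 WT cells (log2 fold change 0.90, adjusted p 0.00420). Endog, a mitochondrial nuclease, fell to 32.3 ± 5.8 TPM in Th1 KO cells, against 63.0 ± 14.0 TPM in Th1 WT cells (log2 fold change -0.93, adjusted p 0.00808).

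Of 17 death receptor and adaptor genes tested in Th17 cells, 1 rose and 0 fell by limma (median 0.58), with 1 lower at an unadjusted p under 0.05 and 0 by voom. The gene that rose was Fasl, the ligand of the death receptor FAS, with 3.25 ± 1.28 TPM in Th17 KO and 0.515 ± 0.184 TPM in Th17 WT cells (log2 fold change 1.45, adjusted p 0.0235). All 3 Th17 WT libraries were under 1 TPM, so Fasl entered the fit only through the KO libraries, and its call was lost with no filter (adjusted p 0.0596) and without any 1 of the 3 Th17 WT libraries. In Th1 KO cells 7 of 16 rose and 0 fell by limma (median 0.48), with 0 lower by voom and at an unadjusted p under 0.05. Tnf, the cytokine TNF, averaged 95.8 ± 17.1 TPM in Th1 KO and 25.2 ± 8.7 TPM in Th1 WT cells (log2 fold change 1.92, adjusted p 0.000643), its receptor gene Tnfrsf1a rose by 1.47 and Casp8, the initiator caspase of this route, by 0.63.

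Of 16 p53 pathway genes tested, 2 rose in Th17 KO cells (median 0.66), Pmaip1 and Perp, and 0 fell by limma, by voom or at an unadjusted p under 0.05. Perp averaged 31.5 ± 3.2 TPM in Th17 KO and 9.09 ± 2.57 TPM in Th17 WT cells (log2 fold change 1.71, adjusted p 0.0144). In Th1 KO cells 4 of 16 rose and 0 fell by limma (median 0.26). At an unadjusted p under 0.05, 4 were lower, and voom called 3 lower, Aen, Ei24 and Sesn1, and 5 higher, with Perp added. Those that rose by limma included Pmaip1, Cdkn1a, the cell cycle inhibitor p21, by 1.10 (adjusted p 0.00515) and Sesn2 by 1.09 (adjusted p 0.00227).

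Of 20 transcription factor genes known to act on members, 1 rose and 1 fell in Th17 KO cells (median 0.22). Nfkb1, a subunit of NF-kappaB, averaged 52.2 ± 17.3 TPM in Th17 KO and 19.8 ± 1.8 TPM in Th17 WT cells (log2 fold change 1.30, adjusted p 0.0427). Atf4, a factor of the stress response, fell to 225 ± 30 TPM in Th17 KO cells, against 391 ± 35 TPM in Th17 WT cells (log2 fold change -0.80, adjusted p 0.0472). In Th1 KO cells 5 rose and 1 fell (median 0.14). Nfkb2 rose by 1.37 (adjusted p 0.000762), Hif1a, the oxygen-regulated factor, by 1.23 (0.00124) and Tbx21, the lineage factor of Th1 cells, by 1.02 (0.00199).

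Of 5 tested inhibitors of apoptosis, 0 passed in Th17 cells by limma (1 at an unadjusted p under 0.05, and 1, Birc6, by voom) and 1 rose in Th1 KO cells, Birc2, by 0.98 (adjusted p 0.00521), with medians of 0.21 and 0.36. Of 10 mitochondrial pore genes and partners, 0 passed in Th17 cells by limma (1 at an unadjusted p under 0.05, and 1, Ppp3ca, by voom) and 2 rose in Th1 KO cells, Bag3 by 0.70 and Bcap31 by 0.48, with medians of 0.02 and 0.23. The Th17 calls of Bok, Fasl, Perp, Nfkb1 and Atf4 were each lost without Th17 WT replicate 2 and without Th17 WT replicate 3. All but Fasl were also lost without Th17 KO replicates 1 and 3, and all but Perp without Th17 WT replicate 1, with adjusted p up to 0.207. Fasl did not reach the filter without any 1 KO library. With no filter all but Perp were lost, with a pseudocount of 5 Nfkb1, and Atf4 also with median-of-ratios scaling, voom and the replicate block that pairs the Th17 libraries. In Th1 cells, Bag3 was lost with no filter and without Th1 WT replicate 2 or 3 or Th1 KO replicate 1 or 3 (adjusted p up to 0.141) and Bcap31 without any 1 Th1 KO library (up to 0.101). In the fit over all 12 libraries, Birc2, Sesn2, Nfkb2, Tbx21, Bag3 and Bcap31 also lost their Th1 calls.

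The promoters of 9 of the 10 members were in the RefSeq table of GRCm38.p6, which holds 250 bases before and 50 after each start. Pmaip1 is named only. These windows were searched on both strands for GTAAACA (forkhead factors), TTCNNNGAA (STAT factors), a wider and a narrower NF-kappaB motif, the second a case of the first, CACGTG (E-box), TGACTCA (AP-1) and TGATGCAAT (ATF4 with CHOP). These occur in 3.65%, 8.3%, 0.411%, 0.155%, 7.15%, 5.2% and 0.192% of all 32851 promoters. Bcl2l11, a known target of FOXO factors, held the forkhead letters in 1 of its 2 promoters, 227 bases before the start. The stretch that holds them, from 250 bases before the start, is shown because Bcl2l11 carried the difference between lineages, with the motif in capitals.
Bcl2l11 promoter, chr2:128125788-128125865, plus strand: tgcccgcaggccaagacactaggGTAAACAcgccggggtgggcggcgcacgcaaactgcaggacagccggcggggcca
The forkhead letters also occurred in 1 and the E-box in another of the 3 promoters of Bbc3, and the E-box 2 times in that of Bax. No other match was found in the members, including both A1 genes, which says only that these letters are not in these windows. The promoters of Bcl2a1d and Bcl2a1b were 98.8% identical over 250 aligned bases.

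By Pearson correlation of log2(TPM + 1) over the 12 libraries, among 9619 genes averaging at least 5 TPM, the genes most like each member were listed as a description. Bcl2l11 was nearest to Phf11b (r = 0.931), Slfn1 (0.925) and Phf11a (0.921), and Pmaip1 to Hspa13 (0.987), Sgms1 (0.977) and Nabp1 (0.969). Bcl2a1b was nearest to Bcl2a1a (0.964), Serpinb9b (0.958) and Gzmf (0.958), and Bcl2a1d to Bcl2a1a (0.996), Slc35b1 (0.976) and Derl2 (0.962). Bcl2l1 was nearest to Mfsd14a (0.990), Mcl1 to Lpin1 (0.975), Bcl2 to R3hdm1 (0.913), Bax to Uxt (0.979), Bak1 to Galnt7 (0.946) and Bbc3 to Map3k14 (0.989). These points share groups and sequencing depth, and the A1 copies also share reads. Th17 KO replicate 2 is the highest of the 12 libraries for Bcl2l1, Bbc3, Mcl1, Bcl2l11 and Bak1, and the lowest for Bax.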

How the data were processed

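The authors deposited 1 table of TPM per lineage, with exon lengths and coordinates; the values are TPM by the name of the tables and their sum of 1000000 in every library. Per the labels' protocols, 75-base single-end reads came from SMART-Seq and Nextera XT libraries, which do not mark strand. The build GRCm38.p6, STAR 2.7.2b, featureCounts 1.6.4, cutadapt, bcl2fastq 2.20.0.422 and DESeq2 1.24.0 stand in the submitters' processing notes, without their roles. TPM times exon length gave whole reads for 100.0% of values within 0.02 reads. Replicates differed by more than sampling noise, with a chi-square of 13.1 or more per gene.

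Groups and replicate numbers came from titles. The test was limma 3.58.1 (R 4.3.3, trend, two-sided) on log2(TPM + 1) of genes reaching 1 TPM in at least 3 of the libraries fitted, adjusted by Benjamini-Hochberg over all genes tested, threshold 0.05. The step was also run on simulated counts with the same dispersion for every gene and no library that stood apart. That run does not cover data with such a library. Genotypes were compared within the 6 libraries of a lineage, and lineages and the interaction in a model of 4 group means over 12 libraries. Alternatives were pseudocounts of 0.1 and 5, no filter and a filter of 5 TPM, median-of-ratios scaling, voom on the recovered reads, the replicate number as a block, other libraries in the fit, summed A1 copies and leaving out each library. Same-numbered libraries deviated from their group means together, at correlations of 0.137, 0.409 and 0.230 between Th17 KO and Th17 WT. Between Th17 WT and Th1 WT these were 0.719, 0.256 and 0.532. Unlike numbers gave -0.413 to 0.105 in the first pair of groups and -0.607 to 0.281 in the second. The 0.281, of Th17 WT replicate 2 with Th1 WT replicate 3, was above the 0.256 of the same number. The numbers were taken to pair libraries in both pairs of groups, although the labels do not say so. Between Th1 KO and Th1 WT and between Th17 KO and Th1 KO at least 1 same-numbered value was under 0.1, so there they were not.

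The members, the 7 pathway lists and the 9 marker lists were chosen with earlier results of these data known. Named are all members, up to 3 genes with the smallest adjusted p per pathway list and genotype comparison among those that passed, and the 3 genes most correlated with each member, of which some are left out; other genes were named after their values were seen. A few results under this rule are not reported here. Sequences are from RefSeq (promoters, GRCm38.p6) and GENCODE M21 (coding).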

Additional observations from a re-analysis of the deposited data

Results flagged for a closer look

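The effect of GLUT3 loss on Bcl2l11 differed between the lineages by 2.24 on the log2 scale (KO effect in Th17 cells minus that in Th1 cells), the difference itself having been tested by limma with an adjusted p of 0.0217. The call held in 4 of the 12 fits that left out 1 library (adjusted p 0.0148 to 0.0887 over the 12). All 3 Th17 KO libraries lay above all 3 Th17 WT libraries, while Th1 KO and Th1 WT libraries overlapped.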

How the results depend on the processing

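Of 840 recomputed values, 778 kept their direction and side of the threshold, 28 dropped below it, 13 passed it and 21 changed sign, all 21 of members that had not passed. The cause of these changes was not tested. Leaving out each library gave 0 to 2 members called in Th17 KO against WT, 3 to 5 in Th1 KO against WT, 0 to 1 for the interaction, 0 to 3 for Th17 against Th1 in WT and 3 to 4 in KO. In Th17 cells 1 member passed with a pseudocount of 5 and 1 with no filter. Between wild-type lineages 2 passed with a pseudocount of 0.1, with a filter of 5 TPM and with the replicate block, and 3 with median-of-ratios scaling and with voom.

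Without 1 library, log2 differences that changed sign ranged from -0.20 to 0.34 for Bcl2 in Th17 KO against WT, -0.41 to 0.18 for Bcl2l1 and -0.22 to 0.18 for Bax in the interaction, -0.38 to 0.15 for Bcl2 and -0.10 to 0.15 for Mcl1 in Th17 against Th1 WT, and -0.18 to 0.41 for Bcl2l1 in Th17 against Th1 KO. With median-of-ratios scaling and voom, Mcl1 in Th17 against Th1 WT was -0.17 and -0.14, and Bcl2l1 in Th17 against Th1 KO -0.024 and -0.020.

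Over all genes, 1009 passed in Th17 KO against WT, 2933 in the fit over 12 libraries, and 109 to 2158 without 1 library, the last without Th17 KO replicate 2. In Th1 KO against WT 4220 passed, 2568 in the fit over 12 libraries and 2594 to 4587 without 1 library. For the interaction 93 passed, 44 with a pseudocount of 0.1 and 21 to 171 without 1 library. In Th17 against Th1 WT 529 passed, and 309 to 1582 without 1 library. In Th17 against Th1 KO 861 passed, and 449 to 1219 without 1 library. The replicate block changed no member's call other than that of Bcl2l11 between wild-type lineages. In Th1 cells, where the numbers were not taken to pair libraries, 4479 genes passed with it. Bak1 and Bbc3, at 4 to 52 and 20 to 163 reads, are limited by depth; reads copied by PCR are not separate molecules, so read numbers bound the counting error alone.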
